A study of Mus musculus with 8 samples.

Results

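The 10 genes described are of 3 families of calcium-, lipid- and sugar-binding proteins: the S100 proteins S100a4, S100a6, S100a10 and S100a11, the annexins Anxa1, Anxa2, Anxa5 and Anxa6, and the galectins Lgals1 and Lgals3. They are 10 of 15095 gene symbols on the array and were measured by 11 probes, 2 of them for S100a4. The genes were picked by symbol and chosen by values already seen in the comparison of Ser585Gly with wild type at 0 h, so that comparison is given for them as a description without a test.

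The cells were CTL-EN, a factor-dependent mouse T cell line, expressing the beta common chain of the GM-CSF receptor either as the wild type or carrying a serine-to-glycine change (Ser585Gly). All cells were first held for 12 h without factor in RPMI with 0.5% CS, which is the state called 0 h. The 12 h cells had a further 12 h with 50 ng/mL of human GM-CSF. RNA was compared on 8 arrays of 2 colours that formed a square of 4 comparisons, namely the 2 receptors against each other at 0 h, the receptors at 12 h, and the change from 0 h to 12 h within each population. Ratios between the receptors are Ser585Gly over wild type, and ratios of time are 12 h over 0 h. Each comparison had 2 arrays with the dyes exchanged, with Ser585Gly or 12 h RNA in Cy5 on array 1 and in Cy3 on array 2. No label names separate cultures, clones or extracts, so the 2 arrays of a comparison were averaged and counted as 1 replicate. The SE and p-values of the main fit rest on how well the 4 pair means close the square and on limma's prior over all probes. The difference between the 2 arrays of a pair does not enter them, and neither does any spread between cultures. Each fitted value is a signed sum of the 4 pair means, with a weight of 75% on its own pair and of 25% in size on each of the other 3. The tests at 12 h and with time therefore draw in part on the 0 h receptor pair that chose the genes, and the calls were repeated on the 6 arrays outside that pair, fitted singly with a dye term, an alternative added after seeing the data. That repeat treats the 2 arrays of a pair as separate, and the comparisons of time still use the same 0 h RNA. No labelled sample spent those last 12 h without the factor, so the factor and the added hours cannot be told apart.

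The median spot of an array read 631 to 946 intensity units in the Cy5 channel and 795 to 1105 in the Cy3 channel. The dye-swapped arrays agreed poorly over all 21776 probes in the comparisons of the 2 receptors, with correlations of 0.126 at 0 h and 0.221 at 12 h, and better in the comparisons of time, with 0.515 in wild type and 0.51 in Ser585Gly. These correlations are across probes, which are not independent replicates. T cell markers were bright: Cd3g and Thy1 both lay at brightness percentile 98.6 and Gzma, a cytotoxic granule protease, at 99.6. Cd4 and Gzmb were too dim to judge, meaning that no probe lay above the 95th percentile of 244 wells named empty, and 13 of 15 T cell markers on the array were above it. Cd3e and Cd3g, subunits of the T cell receptor complex, were lower at 12 h in both cell populations, with log2 ratios of -0.80 and -0.64 in wild type (adjusted p = 0.0228 and 0.0365, limma). They were 2 of 15 T cell markers called, and the others were not called. Of all probes, 1.94% were called lower and 2.93% higher with time in wild type, and 2.26% and 3.61% in Ser585Gly. The list's median was -0.04 in wild type, with 5 of 15 above 0, and 0.04 in Ser585Gly, with 10 of 15 above 0, and the highest was Thy1, at 0.75 and 0.76 (adjusted p = 0.0628 and 0.0571). Of 15 myeloid markers 1 passed the test at 12 h between the receptors, the protease gene Ctsg, lower in Ser585Gly with a log2 ratio of -2.34 (adjusted p = 0.00386, limma). Ctsg also rose with time in wild type, by 0.70 (adjusted p = 0.0309). Of 6 dendritic cell markers 1 passed at 12 h, the chemokine receptor gene Ccr7, which T cells also express, at 0.85 (adjusted p = 0.0435). Of all probes, 0.354% were called higher and 0.344% lower between the receptors at 12 h. The part of these marker changes in the results below was not tested.

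All gene names rest on a print order that moves each name to another spot than the one the deposited table pairs it with. Under this order 905 genes with 2 probes had a correlation of 0.306 between their probes' ratios, against -0.0102 in the deposited order. Wells named empty had a median brightness percentile of 1.34, against 47.5. With names as deposited, none of the calls of members below was made.

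S100 proteins are small proteins with EF-hand motifs that bind calcium and then dock on target proteins. S100a10 differs in that it no longer needs calcium and is found in a complex with Anxa2, whereas S100a11 is a partner of Anxa1. Annexins bind acidic phospholipids at the cytosolic face of membranes when calcium rises, and galectins bind beta-galactoside sugars on glycoproteins and can act inside or outside the cell. In T cells Lgals1 and Lgals3 are known as regulators of activation and death.

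Promoters of 7 of the 10 members were matched in the RefSeq table of build GRCm38.p6, each 250 bases before to 50 bases after the transcription start. S100a10, Anxa6 and Lgals1 were not matched. Those of Lgals3, S100a4, Anxa2 and S100a11 are printed 5′ to 3′ on the gene's strand. The first 3 had the greatest fitted differences between the receptors at 0 h, the comparison that chose the genes. At 12 h Anxa5, which is not printed, had a fitted value of 0.80, against 0.77 for Anxa2. S100a11 had low adjusted p-values with time. Capitals mark matches, on either strand, to 6 motifs. The AP-1 motif was searched as TGANTCA and the GC box as GGGCGG. The E-box, bound by Myc and related factors, was searched as CACGTG. The TATA element of core promoters was searched as TATAAA. The motif of STAT factors, which act below the GM-CSF receptor, was searched as TTCNNNGAA. The FoxO motif was searched as GTAAACA. No 2 matches overlapped in these promoters.
Lgals3, chr14:47373610-47373909, plus strand: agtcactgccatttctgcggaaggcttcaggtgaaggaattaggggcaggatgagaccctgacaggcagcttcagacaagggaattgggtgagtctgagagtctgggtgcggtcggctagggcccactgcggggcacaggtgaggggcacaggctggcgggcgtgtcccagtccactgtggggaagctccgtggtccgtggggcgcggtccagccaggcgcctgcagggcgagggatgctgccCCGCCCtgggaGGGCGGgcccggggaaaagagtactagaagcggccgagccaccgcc
S100a4, chr3:90603520-90603819, plus strand: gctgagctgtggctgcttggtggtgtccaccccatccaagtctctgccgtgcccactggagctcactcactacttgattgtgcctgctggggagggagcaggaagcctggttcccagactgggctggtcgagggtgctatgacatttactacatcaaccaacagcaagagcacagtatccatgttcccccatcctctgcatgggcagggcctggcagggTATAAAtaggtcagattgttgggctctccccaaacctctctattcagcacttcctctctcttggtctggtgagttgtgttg
Anxa2, chr9:69453433-69453732, plus strand: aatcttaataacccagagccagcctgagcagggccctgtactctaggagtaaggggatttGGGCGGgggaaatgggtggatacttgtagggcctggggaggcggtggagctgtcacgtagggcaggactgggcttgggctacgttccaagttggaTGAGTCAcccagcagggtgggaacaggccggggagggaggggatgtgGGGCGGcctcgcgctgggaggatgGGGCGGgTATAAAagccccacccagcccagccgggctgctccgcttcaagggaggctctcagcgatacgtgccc
S100a11, chr3:93520246-93520545, plus strand: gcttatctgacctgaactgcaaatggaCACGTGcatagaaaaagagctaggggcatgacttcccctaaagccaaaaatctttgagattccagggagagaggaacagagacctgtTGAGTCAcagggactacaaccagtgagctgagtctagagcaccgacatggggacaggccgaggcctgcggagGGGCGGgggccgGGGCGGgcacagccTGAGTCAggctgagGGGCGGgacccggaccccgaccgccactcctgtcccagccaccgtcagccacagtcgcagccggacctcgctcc

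Lgals3 held 2 GC boxes and none of the other motifs. S100a4 held a TATA match that begins 31 bases before the start and no GC box. Anxa2 held 1 AP-1 match, 3 GC boxes and a TATA match, and S100a11 held 2 AP-1 matches, 3 GC boxes and 1 E-box. Over 32851 promoters of this length, the share with a match was 8.3% for STAT, 3.65% for FoxO, 7.81% for AP-1, 35.7% for the GC box, 7.15% for the E-box and 13.6% for TATA. None of the 7 member promoters held these STAT or FoxO letters, and that of Anxa5 held none of the 6 motifs. A match describes the letters only.

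Lgals3, the chimaeric galectin that can cross-link sugars on cell surface receptors, was the member that differed most between the receptors. Its turned log2 ratio of Ser585Gly over wild type was 1.52 and 1.77 on the 2 arrays at 0 h and 2.38 and 2.33 on the 2 arrays at 12 h. Both arrays at 12 h placed Ser585Gly higher, in both dye orientations. The sign at 0 h was known when the genes were chosen. The fit over the square gave a log2 ratio of 1.83 ± 0.17 (SE), or 3.55-fold, at 0 h. At 12 h the ratio was 2.17 ± 0.17, or 4.50-fold, and the gene was higher in Ser585Gly (adjusted p = 0.00996, limma with Benjamini-Hochberg adjustment). On the 6 arrays without the 0 h receptor pair it was 2.36 ± 0.10 (adjusted p = 0.00135, limma). Of all probes, 0.354% were called higher and 0.344% lower in that comparison. At 0 h the shares were 0.436% and 0.767%, from which nothing is read about the members.

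The level of Lgals3, a log2 intensity over the 4 channels that held each RNA, was 11.89 ± 0.35 (SD) in wild type at 0 h and 12.08 ± 0.16 at 12 h. In Ser585Gly it was 13.58 ± 0.44 at 0 h and 14.11 ± 0.55 at 12 h. The lowest Ser585Gly channel was 13.16 and the highest wild-type channel 12.31. These channels repeat the same RNAs and include those of the 0 h comparison that chose the genes. How many of all probes were separated in this way was not counted. The levels also carry differences between arrays, and their means were higher at 12 h where the ratios within an array were below 0. Those ratios of 12 h over 0 h were -0.19 and -0.20 in wild type and -0.24 and -0.21 in Ser585Gly. The fitted change with time was -0.38 ± 0.17 in wild type (adjusted p = 0.265) and -0.04 ± 0.17 in Ser585Gly (adjusted p = 0.924), and neither passed the test. The probe that follows Lgals3 in number carries Ccl11, a chemokine, and had fitted log2 ratios between the receptors of 1.74 at 0 h and 1.45 at 12 h. The probe that precedes it, for Tgtp1, had 0.12 and 0.23. The part of a neighbouring well in the Lgals3 value was not tested.

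S100a4, which binds non-muscle myosin and is known in cell motility, had ratios of Ser585Gly over wild type of 1.33 and 1.34 on the arrays at 0 h and of 0.94 and 0.69 at 12 h. Both arrays at 12 h again placed Ser585Gly higher, and the sign at 0 h was known when the genes were chosen. The fitted log2 ratio was 1.28 ± 0.12 (SE) at 0 h, or 2.43-fold, and 0.87 ± 0.12 at 12 h, or 1.83-fold, where the gene was higher in Ser585Gly (adjusted p = 0.0444, limma). On the 6 arrays without the 0 h receptor pair it was 0.82 ± 0.10 (adjusted p = 0.0246, limma). Its second probe, at a like brightness percentile of 41.9 against 44.8, had 0.04 ± 0.11 at 0 h and 0.02 ± 0.11 at 12 h. The 2 probes therefore disagree, and with the mean over both the 12 h ratio was 0.45 (adjusted p = 0.203). The call was also lost with background subtraction (adjusted p = 0.06). It was lost on leaving out array 2 of the receptors at 0 h (adjusted p = 0.188) or at 12 h (0.0943), array 2 of time in wild type (0.149) or array 1 of time in Ser585Gly (0.162). Levels were 8.73 ± 0.24 and 8.83 ± 0.23 (SD) in wild type at 0 h and 12 h, and 9.97 ± 0.32 and 9.64 ± 0.29 in Ser585Gly. The highest wild-type channel was 9.08 and the lowest Ser585Gly channel 9.21, with the same limit as for Lgals3. With time the fitted change was 0.02 ± 0.12 in wild type (adjusted p = 0.952) and -0.40 ± 0.12 in Ser585Gly (adjusted p = 0.118).

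**Figure D1:**
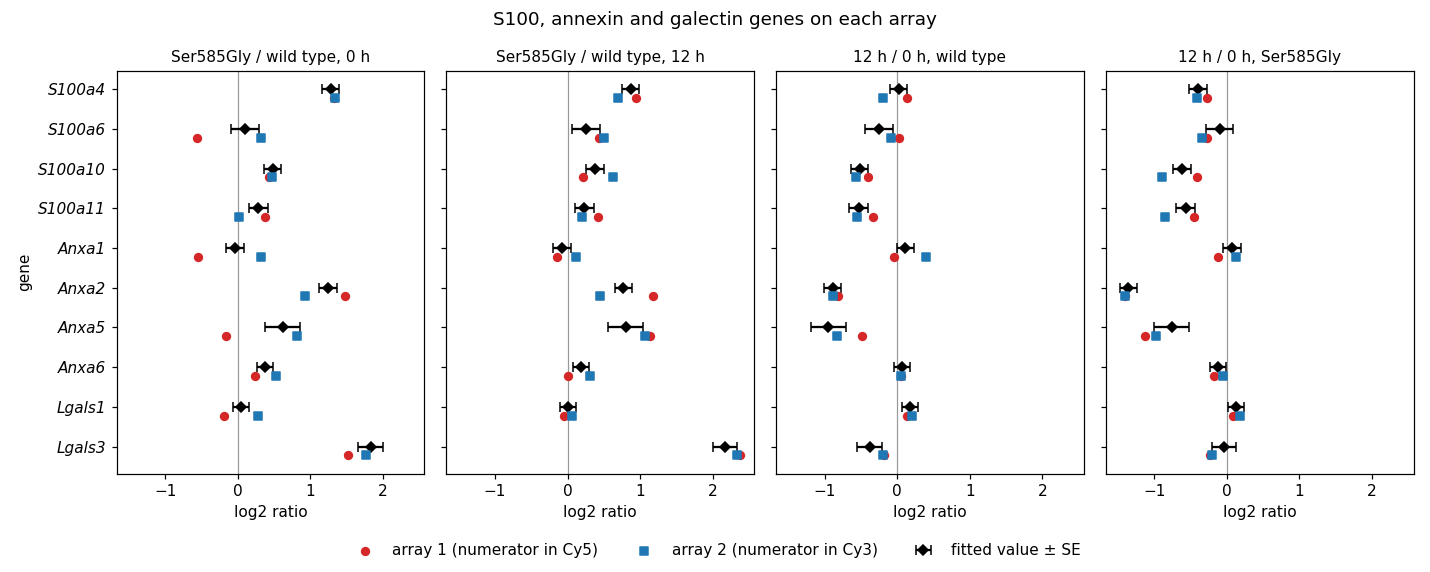
Log2 ratio (horizontal axis) of each of the 10 genes in the 4 comparisons, with the 2 dye-swapped arrays as red circles and blue squares and the fitted value ± SE as a black diamond. Lgals3, S100a4, Anxa2, S100a10, S100a11 and Anxa6 lie to the right of 0 on both arrays of each receptor comparison, of which the 0 h values chose the genes. Anxa2, S100a10, S100a11, Anxa5 and Lgals3 lie left of 0 on all 4 arrays of time. Anxa1 between the receptors at 0 h is at -0.55 on one array and 0.32 on the other.

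Anxa2, which organises membranes with actin and is the main partner of S100a10, was higher in Ser585Gly at 0 h and fell with time in both populations. Ratios of Ser585Gly over wild type were 1.48 and 0.92 at 0 h and 1.18 and 0.44 at 12 h, uneven between the dyes. The fitted values were 1.24 ± 0.12 (SE) at 0 h, or 2.37-fold, and 0.77 ± 0.12 at 12 h, which did not pass the test (adjusted p = 0.0663). Fitted with all 8 arrays singly and a dye term, the 12 h value had an adjusted p of 0.0284. On the 6 arrays without the 0 h receptor pair it was 0.81 ± 0.15 and did not pass (adjusted p = 0.0709, limma). Ratios of 12 h over 0 h were -0.82 and -0.88 in wild type and -1.41 and -1.40 in Ser585Gly. Anxa2 fell by 0.89 on the log2 scale in wild type, with an SE of 0.12 and a fold size of 1.85 (adjusted p = 0.0178). In Ser585Gly it fell by 1.36, with the same SE and a fold size of 2.58 (adjusted p = 0.00718). On the 6 arrays the adjusted p-values of these changes with time were 0.027 and 0.00551 (limma). Of all probes, 1.94% were called lower and 2.93% higher with time in wild type, and 2.26% and 3.61% in Ser585Gly. The difference between the 2 changes was -0.47 ± 0.14, given as a description because it contains the 0 h comparison. No probe of 21776 passed the test for such a difference (limma), with 1504 at an unadjusted p under 0.05, and 12 passed when the 8 arrays were fitted singly. The wild-type call was lost on leaving out array 2 of the receptors at 0 h (adjusted p = 0.0925) or at 12 h (0.0512), or array 1 of time in Ser585Gly (0.0755), and the Ser585Gly call was kept on leaving out any 1 array. Levels ran from 10.33 ± 0.86 (SD) in wild type at 12 h and 11.20 ± 1.15 in Ser585Gly at 12 h to 11.46 ± 0.59 in wild type and 12.79 ± 0.50 in Ser585Gly at 0 h. Neighbours in that order of levels differ by less than or about their spread, except at 0 h. There the lowest Ser585Gly channel was 12.30 and the highest wild-type channel 11.98, in the comparison that chose the genes.

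S100a10, the light chain of the Anxa2 complex, had ratios of 12 h over 0 h of -0.41 and -0.57 in wild type and of -0.42 and -0.89 in Ser585Gly. It was lower at 12 h on all 4 arrays. In Ser585Gly it fell by 0.62 on the log2 scale with an SE of 0.12 (adjusted p = 0.037), and in wild type the change was -0.52 ± 0.12 (adjusted p = 0.0612). The Ser585Gly call was lost on leaving out array 2 of the receptors at 0 h (adjusted p = 0.211), array 1 or 2 of the receptors at 12 h (0.0623 and 0.0797), array 2 of time in wild type (0.11) or array 1 of time in Ser585Gly (0.0854), and on the 6 arrays without the 0 h receptor pair (0.0512). Between the receptors its fitted values were 0.48 ± 0.12 at 0 h and 0.38 ± 0.12 at 12 h (adjusted p = 0.28). The array ratios were 0.43 and 0.47 at 0 h and 0.21 and 0.62 at 12 h.

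S100a11, a partner of annexins at membranes and the gene next to S100a10 in the gene table, had ratios of 12 h over 0 h of -0.34 and -0.56 in wild type and -0.45 and -0.85 in Ser585Gly. The fitted values were -0.53 ± 0.13 (adjusted p = 0.0743) and -0.57 ± 0.13 (adjusted p = 0.0552), both just outside the threshold. With 8 arrays singly both passed, at adjusted p of 0.0165 and 0.0103, and on the 6 arrays they were 0.0517 and 0.0152. Between the receptors it had 0.28 ± 0.13 at 0 h and 0.23 ± 0.13 at 12 h (adjusted p = 0.533).

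S100a6, or calcyclin, showed no change past the test. Its ratios between the receptors at 0 h were -0.56 and 0.32, of opposite sign in the 2 dye orientations, against 0.43 and 0.50 at 12 h. The fitted value at 12 h was 0.25 ± 0.19 (adjusted p = 0.667), and those with time were -0.25 ± 0.19 in wild type (adjusted p = 0.501) and -0.10 ± 0.19 in Ser585Gly (adjusted p = 0.821).

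Anxa5, whose protein binds phosphatidylserine and is used to stain dying cells, had the least even arrays. Between the receptors its ratios were -0.16 and 0.81 at 0 h and 1.13 and 1.07 at 12 h. With time they were -0.48 and -0.83 in wild type and -1.13 and -0.98 in Ser585Gly. The 4 pair means did not close the square well, so the SE of the fitted values, at 0.24, was the greatest among the members. The fitted values were 0.80 between the receptors at 12 h (adjusted p = 0.269), -0.95 with time in wild type (adjusted p = 0.0811) and -0.76 in Ser585Gly (adjusted p = 0.126), and none passed the test. With 8 arrays singly the wild-type change passed, at an adjusted p of 0.0474. On the 6 arrays all 3 passed, at 0.0157 between the receptors and 0.0292 and 0.00652 with time. Its levels, which also carry differences between arrays, were not lower at 12 h, at 9.64 ± 0.35 and 9.69 ± 0.74 (SD, 4 channels) in wild type at 0 h and 12 h and 10.59 ± 0.88 and 10.82 ± 0.69 in Ser585Gly.

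Anxa1, a phospholipase regulator, and Anxa6, an annexin of endosomes and the plasma membrane, did not pass any test. Anxa1 had fitted values of -0.08 ± 0.12 between the receptors at 12 h (adjusted p = 0.842), 0.11 ± 0.12 with time in wild type and 0.07 ± 0.12 in Ser585Gly. Anxa6 had 0.37 ± 0.11 at 0 h between the receptors, 0.18 ± 0.11 at 12 h (adjusted p = 0.61), 0.06 ± 0.11 with time in wild type (adjusted p = 0.79) and -0.13 ± 0.11 in Ser585Gly (adjusted p = 0.574). Lgals1, the galectin that forms dimers, was the brightest member at percentile 99.4 and had fitted values between 0.01 and 0.17 in the 4 comparisons. In 4 of its 16 channels the spot was at 0.9 or more of that channel's maximum on the array, which narrows any ratio that could be measured.

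**Figure D2:**
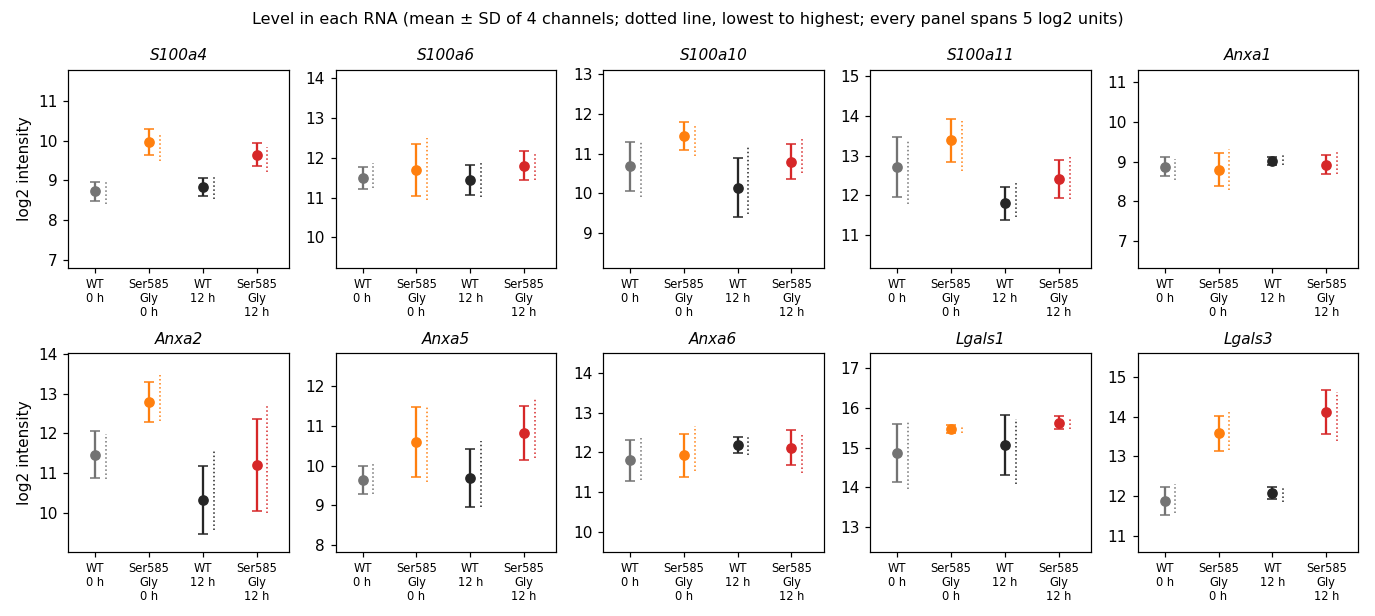
Log2 intensity (vertical axis, 5 log2 units in every panel) of each gene in the 4 RNAs, as the mean ± SD of 4 channels with a dotted line from the lowest to the highest channel. Channels of one RNA are not separate cultures. In Lgals3 and S100a4 the Ser585Gly channels lie above all wild-type channels, which include the 0 h RNAs whose comparison chose the genes. In Lgals1 all RNAs lie near the top of the scale with means from 14.87 to 15.63.

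Of the 10 members, S100a4 and Lgals3 passed the test between the receptors at 12 h, with time in wild type Anxa2, and with time in Ser585Gly Anxa2 and S100a10. Of all probes, 0.354% were called higher between the receptors at 12 h, and 1.94% and 2.26% lower with time in the 2 populations. The median fitted log2 ratio over the members was 0.43 and 0.32 between the receptors and -0.32 and -0.26 with time. The median over all probes was between -0.01 and 0.01. The members were chosen with the 0 h receptor values known, and the other fitted values take 25% in size from that pair. The member medians are therefore a description, and nothing is read from their distance to all probes. The fit joins all 8 arrays, so the 4 comparisons share arrays as well as RNA and are not independent of each other.

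Other S100, annexin and galectin genes, 26 of 29 listed being on the array, had medians of -0.03, 0.01, -0.03 and -0.02 in the order of the 4 comparisons. Single genes ran from -0.70 to 0.70, -0.24 to 0.58, -0.78 to 0.59 and -0.59 to 0.81, and 0 of 26 passed at 12 h between the receptors or with time in wild type. In Ser585Gly with time, where 3.61% of all probes were called higher, 1 of 26 passed. It was Lgals3bp, a secreted ligand of Lgals3, which rose by 0.81 ± 0.14 (adjusted p = 0.0313). That call was lost on leaving out any of 4 arrays, at adjusted p of 0.0766 to 0.154. The highest value between the receptors was that of S100a13, with 0.70 at 0 h and 0.58 at 12 h (adjusted p = 0.125). The lowest at 0 h was that of Anxa8, at -0.70 ± 0.30, with 0.01 at 12 h. S100a5, which lies between S100a4 and S100a6 in the gene table, had 0.01 and -0.19. Of 8 measured genes that neighbour a member and are no member, 0 passed at 12 h between the receptors or with time in either population. The shares of all probes called higher and lower were 0.354% and 0.344% between the receptors at 12 h. With time they were 2.93% and 1.94% in wild type and 3.61% and 2.26% in Ser585Gly. At these shares nothing is read from the counts of 0.

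Among partners and ligands of these proteins, 29 of 34 listed were on the array. With time in wild type 1 was called higher and 3 lower, and in Ser585Gly 2 higher and 4 lower. Of all probes, 2.93% were called higher and 1.94% lower in wild type, and 3.61% and 2.26% in Ser585Gly. Ahnak, the giant scaffold held at the membrane by Anxa2 and S100a10, fell by 1.68 on the log2 scale in wild type (adjusted p = 0.00348) and fell by 1.37 in Ser585Gly (adjusted p = 0.00704). All 4 of its probes passed in wild type, with ratios from -1.68 to -0.70, and 2 of 4 passed in Ser585Gly. Lamp2, a lysosomal glycoprotein bound by galectins, fell by 0.92 in wild type (adjusted p = 0.0181) and fell by 0.69 in Ser585Gly (adjusted p = 0.0335). Tpm1, an actin-binding tropomyosin, fell by 1.43 (adjusted p = 0.00565) and fell by 0.79 (adjusted p = 0.0248). Vim, an intermediate filament protein, rose by 0.67 in wild type (adjusted p = 0.0343). Cacybp, which binds S100a6, rose by 0.98 in Ser585Gly (adjusted p = 0.0135), Kcnk3, a potassium channel that S100a10 carries to the membrane, by 0.70 (adjusted p = 0.027), and 1 of 3 probes of Ncam1 was lower.

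Between the receptors at 12 h 0 partners were called higher and 2 lower, against 0.354% and 0.344% of all probes. Ptprc, the CD45 phosphatase whose sugars galectins bind, was lower in Ser585Gly with a log2 ratio of -1.74 (adjusted p = 0.00996), and Tpm1 was lower at -1.17 (adjusted p = 0.0183). At 0 h the partners named are those past the limma threshold, 2 higher and 4 lower, against 0.436% and 0.767% of all probes. Their values are a description, because the members were chosen with this comparison known. Ptprc had -1.57, Tpm1 -1.82, Ahnak -0.93 and Cacybp -0.89, while Vim had 1.05 and Mgat5, the enzyme that builds branched glycans for galectins, had 0.75. Outside the 0 h comparison, the calls of Ahnak in both populations, Tpm1 in wild type and Ptprc at 12 h were kept on leaving out any 1 array. Those of Lamp2, Vim, Cacybp, Kcnk3 and Ncam1 and the other 2 of Tpm1 were lost on leaving out 2 to 5 of the 8 arrays.

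Of 27 other calcium-binding and membrane-cytoskeleton genes on the array, 0 passed between the receptors at 12 h, and 1 was higher and 1 lower with time in each population. Their median was between -0.0011 and 0.07. The shares of all probes called higher and lower with time were 2.93% and 1.94% in wild type and 3.61% and 2.26% in Ser585Gly. Between the receptors at 12 h they were 0.354% and 0.344%, so nothing is read from the 0. Calm2, one of the calmodulin genes, had 0.61 ± 0.14 between the receptors at 12 h (adjusted p = 0.166). On the 6 arrays that value was 0.72 ± 0.11 and passed (adjusted p = 0.0435, limma). With time Calm2 fell by 1.24 in wild type (adjusted p = 0.011) and fell by 0.89 in Ser585Gly (adjusted p = 0.0231). Cnn3, an actin-binding calponin, rose by 0.66 (adjusted p = 0.0371) and by 0.73 (adjusted p = 0.0271). The wild-type call of Cnn3 was lost on the 6 arrays (adjusted p = 0.0519). All 4 calls were lost on leaving out 1 or more arrays, the wild-type call of Calm2 only on leaving out array 2 of that comparison (adjusted p = 0.0735).

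**Figure D3:**
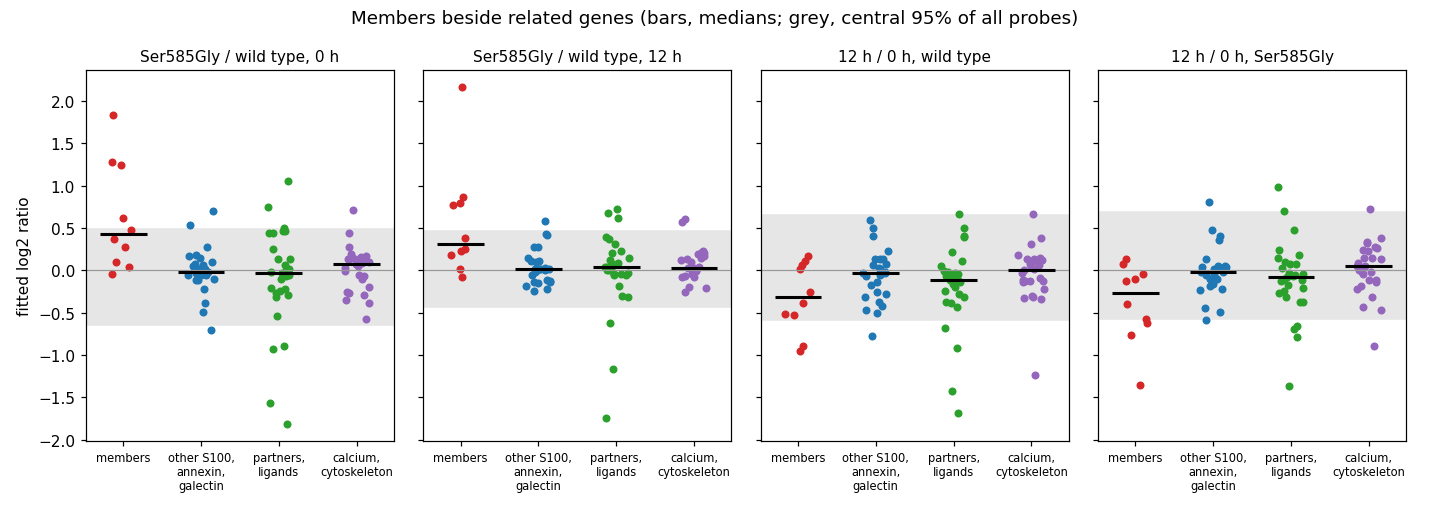
Fitted log2 ratio (vertical axis) of the 10 members, 26 other family genes, 29 partners and ligands and 27 calcium and cytoskeleton genes in the 4 comparisons, 1 point a gene, with black bars for medians and grey for the central 95% of all probes. The member medians are 0.43 and 0.32 in the receptor comparisons and -0.32 and -0.26 with time, and those of the other lists lie between -0.12 and 0.07. The members were chosen with the 0 h receptor values known, so nothing is read from the contrast with the other lists.

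Genes whose 4 direct pair means lay nearest to those of Lgals3, by Euclidean distance, were Cd55 at 0.483, the complement regulator, its neighbouring copy Cd55b at 0.843, which can share signal with it, and Ccl11 at 0.946. For S100a4 they were the chemokine receptor Ccr7 at 0.233, another probe of Cd55 at 0.276 and the kinase Txk at 0.398. For Anxa2 they were the kinesin Kif13b at 0.462, the lymphocyte adaptor Sash3 at 0.523 and Esm1 at 0.59. Sash3 had direct ratios with time of -1.13 in wild type and -1.31 in Ser585Gly, against -0.85 and -1.41 for Anxa2. The measure uses 4 values a gene and includes the comparison that chose the members.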

How the data were processed

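Each array file holds spot intensity and local background intensity for both dyes, per the file headers. Their scanner and software were not given in the sources used here. A deposited table holds log2 ratios of Cy5 over Cy3 made by the authors, and the submitters' processing notes name only limma. Scanner intensities were corrected with normexp (offset 50) and normalised by loess within each array (span 0.3, control spots at weight 0) in limma 3.58.1 under R 4.3.3. Probes were placed on spots by matching deposited ratios to scanner ratios on all 8 arrays (21776 placed, 90.3% at their nearest spot) and then renamed by a print order different from the deposited one. Of them 16642 had 1 symbol, 137 several and 4997 none, and symbols were updated by gene identifier.

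Ratios were turned to one direction, averaged over each dye-swapped pair and fitted as 4 pair means with terms for receptor, time and their interaction, with 1 residual degree of freedom and 5.12 prior degrees of freedom. The test was limma's moderated test, two-sided, with Benjamini-Hochberg adjustment over 21776 probes and a threshold of 0.05. A gene is given by its brightest probe. Levels are channel log2 intensities after loess and quantile normalisation of average intensity. The fit was run on simulated arrays with planted changes and independent noise for each array, without a dye effect. That run holds no spread between cultures and cannot show how well the p-values cover it. The members and gene lists were chosen with earlier results of these data known. All 10 members are described, as are the genes past the threshold in each list, the 3 genes nearest to Lgals3, S100a4 and Anxa2 and the adjacent genes. The number of arrays limits the precision. In all, 21 alternatives were run, 1 of them added after seeing the data, and the closing section gives their effect.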

Additional observations from a re-analysis of the deposited data

Results flagged for a closer look

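Anxa6 moved in opposite directions with time in the 2 populations on every array, at 0.05 and 0.05 in wild type against -0.18 and -0.05 in Ser585Gly, with direct pair means 0.16 apart. The fitted difference was -0.19 ± 0.13 (SE) and was not tested for this gene. Neither change passed the test, at -0.13 ± 0.11 fitted in Ser585Gly and 0.06 ± 0.11 in wild type. The flag rests on the signs of small values, and how many of all probes share this pattern was not counted.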

How the results depend on the processing

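Lgals3 at 12 h between the receptors and Anxa2 with time in Ser585Gly kept their calls under every alternative run except names as deposited, with log2 ratios from 2.12 to 2.73 and from -1.54 to -1.19. With names as deposited, signs turned for S100a10 with time in Ser585Gly (0.04), Anxa2 with time (0.30 in wild type, 0.10 in Ser585Gly), Lgals3 between the receptors (-0.38 at 0 h, -0.25 at 12 h), Vim (-0.35 at 0 h, -0.13 with time in wild type), Tpm1 with time (0.18 and 0.17), Cacybp at 0 h (0.18) and Ptprc at 12 h (0.02), because other spots then carry those names. For the other changes the cause was not tested.

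Members past the threshold at 12 h between the receptors numbered 2, against 1 with background subtraction or the mean over probes, 4 with median centring or the deposited value table, 0 with names as deposited and 1 to 4 on leaving out an array. With time in wild type there was 1, against 4 with 8 arrays singly or the deposited table, 2 with print-tip loess or scaled arrays, 3 with median centring or a trended prior, 0 with names as deposited and 0 to 4 on leaving out an array. With time in Ser585Gly there were 2, against 4 with 8 arrays singly, print-tip loess or median centring, 0 with names as deposited and 1 to 5 on leaving out an array.

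Probes past the threshold between the receptors at 0 h numbered 262, against 878 with 8 arrays singly, 140 with background subtraction, 733 with no background correction, 664 with print-tip loess, 1554 with median centring, 1499 with the deposited table, 815 with a trended prior and 15 to 2378 on leaving out an array. At 12 h 152 probes compare, in that order without subtraction, with 394, 253, 320, 469, 1284 and 263, and 39 to 596. With time in wild type 1062 probes compare with 2122 with 8 arrays singly, 2419 with print-tip loess, 1961 with median centring, 3108 with the deposited table, 1740 with a trended prior and 199 to 3030. In Ser585Gly 1279 compare with 2287, 2718, 2158 and 3113 for the first 4 of these and 182 to 3802. For the difference between the changes 0 passed, against 12 with 8 arrays singly, 23 with median centring, 2 with the deposited table and 0 to 24 on leaving out an array. On the 6 arrays without the 0 h receptor pair, added after seeing the data, 284 probes passed at 12 h between the receptors, 1583 with time in wild type and 2002 in Ser585Gly, with 3, 2 and 3 members. No paired analysis was possible because the replicate numbers mark the dye orientation of each comparison and not shared samples.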
